A study of Mus musculus with 8 samples.

Results

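RNA of heat-shock protein and DNAJ genes was measured in islets of wild-type and NFATc2 knockout mice, with and without a short exposure to cytokines. Members were the genes of the deposited tables whose symbols start with Hspa, Hspb, Hspd, Hspe, Hsph, Hsp90, Dnaja, Dnajb or Dnajc, or with Hsf and a digit. Of 16333 genes 63 met this rule, and 7 proteins of the endoplasmic reticulum with the same name starts were kept out. The group is called here cytosolic heat-shock proteins and DNAJ co-chaperones, but the name rule reaches beyond the cytosol. It takes in the mitochondrial chaperones Hspa9, Hspd1 and Hspe1, nuclear transcription factors, mitochondrial DNAJ proteins such as Dnaja3 and Dnajc19, and membrane-bound ones such as Dnajb12 and Dnajc1. Another 5 members carry the name without being a chaperone of these families: the pseudogenes Hspd1-ps3 and Dnajc19-ps, the exchange factor Hspbp1, the HSPB1-associated protein Hspbap1, and Hspb11, a component of intraflagellar transport.

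HSP70 proteins bind exposed hydrophobic stretches of a client and fold it in cycles of ATP hydrolysis. DNAJ proteins, also called HSP40s or J proteins, bring clients to HSP70 and start the hydrolysis through their J domain, while HSP110 proteins such as Hsph1 exchange the nucleotide afterwards. HSP90 takes over clients such as kinases and steroid receptors late in folding. When unfolded protein accumulates, the transcription factor Hsf1 is released from chaperones, forms trimers and switches on the inducible genes Hspa1a, Hspa1b, Hspb1, Hsph1 and Dnajb1. Beta cells make insulin at a high rate, and heat-shock proteins are known in islets as part of the response to inflammatory cytokines.

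Islets of 2 wild-type (WT) and 2 NFATc2βKO (KO) mice were cultured untreated or with cytokines, both from each mouse, which gave 8 libraries in 4 groups. All mice are labelled as strain Agouti/C57BL6, and all had received tamoxifen. In adult KO mice it deleted Nfatc2, a calcineurin-dependent transcription factor, in cells described as INS-1 expressing, and in WT mice it left no gene knockout. No label names the recombinase or its promoter. The protocol text names instead C57BL/6 mice from Jackson Laboratories beside the transgenic mice, so a difference of source between the genotypes cannot be told apart from the deletion. After a night in 5.5 mM glucose, cultures stayed untreated for 2 h or received a cocktail of IL1β (5 ng/mL), TNFα (10 ng/mL) and IFNγ (50 ng/mL) in 11 mM glucose, also for 2 h. The cytokines came with raised glucose, and their parts cannot be told apart. No label gives the glucose of the untreated cultures during the 2 h.

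The deposited tables give means over the 2 mice of a group in normalized counts, which are reads divided by a size factor for each library. Whole reads of the single libraries were recovered from these means for 16317 genes, all 63 members among them, with 14562368 to 26861854 reads per library. These totals leave out Ins1, Ins2, Iapp and Gcg, whose reads were not recovered. Reads of Y-linked genes showed 1 female and 1 male mouse in each group, and libraries are named here by the sex of the mouse. The female KO library with cytokines held 37 reads of the 4 Y-linked genes where the male one held 10430. Nfatc2 was lower in KO islets, at 1167, 842, 987 and 899 normalized counts against 1557, 1270, 1646 and 1144 in WT, by a log2 fold change of -0.49 untreated (SE 0.23, FDR 0.903) and -0.56 with cytokines (SE 0.24, FDR 0.474) in the authors' deposited table. Neither passed the test. The 6 beta cell markers with recovered reads summed to between 61405 and 75380 normalized counts per library. Markers of other cells differed more between libraries, with acinar sums of 4987 to 117003, stromal sums of 1535 to 13091, endothelial sums of 4978 to 9757, sums for dividing cells of 313 to 1508 and lymphocyte sums of 156 to 1305. Fewer cells of a type and less RNA per cell cannot be told apart in whole islets.

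The constitutive cytosolic chaperones led the group. Per kb of annotated exon, Hsp90ab1, the constitutive cytosolic HSP90, had 6975 normalized counts over all libraries and ranked highest. Hspa8, the constitutive HSP70 also known as HSC70, followed with 3265 and the stress-responsive Hsp90aa1 with 2328 per kb. Next came the mitochondrial HSP70 Hspa9 with 1833, the mitochondrial chaperonin Hspd1 with 1345, the HSP110 protein Hspa4 with 933 and the co-chaperonin Hspe1 with 879 per kb. Among DNAJ genes Dnajc24, a J protein of diphthamide synthesis, was the highest per kb with 635. The inducible HSP70 genes Hspa1a and Hspa1b stood near the bottom, with 37.3 and 41.1 per kb, ranks 59 and 58 of the 63. Both levels are uncertain, since the genes are near copies and it is not known how reads matching both were counted. The low end was Hsf5, a heat-shock factor family member, with 8.46 per kb.

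With cytokines, 0 of the 63 members passed the authors' FDR of 0.05 in either genotype, where the background was 0.0429% of all genes in KO and 0.0122% in WT. Hspa8 (ENSMUSG00000015656, chromosome 9, 40800984-40810087, plus strand, GRCm38) was the member nearest to a call, and it was lower with cytokines in each of the 4 mice. WT islets had 17364 normalized counts untreated and 14878 with cytokines in the female mouse, and 16123 and 13733 in the male. KO islets had 13036 and 11292 in the female mouse and 14094 and 11815 in the male. The libraries show changes of -14.3% and -14.8% in WT and of -13.4% and -16.2% in KO, and in neither genotype did treated and untreated libraries overlap. Treated libraries lay below in this way for 10.9% of all genes in WT and 14.6% in KO. The authors' deposited table gives a log2 fold change of -0.23 in both genotypes (SE 0.088 in both), with an unadjusted p of 0.0101 in WT and 0.00901 in KO and an FDR of 1.00 in both. Unadjusted p-values below 0.05 were found for 0.918% of all genes in WT and 1.02% in KO, and for 1 member in each, Hspa8.

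Since both genotypes gave the same size of change, 1 cytokine term for all 4 mice, with the mouse as a block, was fitted with limma to the recovered reads after the values had been seen. In this fit Hspa8 fell by 0.23 on the log2 scale (SE 0.026, adjusted p = 0.00703), lower in 4 of 4 mice. It was the only one of the 63 members called, against 1.13% of all genes, of which 133 rose and 52 (0.319%) fell. With the genotypes fitted apart and the same block, 0 members were called, against 0.343% of all genes in KO and 0.172% in WT. Left out in turn, 3 of the mice kept the call (adjusted p 0.00401 to 0.0455 with limma), and without the KO female mouse the adjusted p was 0.0512. Beta cell marker sums went from 68812 to 61405 in the WT female and from 75380 to 71866 in the KO female mouse, and from 68573 to 68273 and 73424 to 74185 in the males. Their part in the result was not tested.

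**Figure D1:**
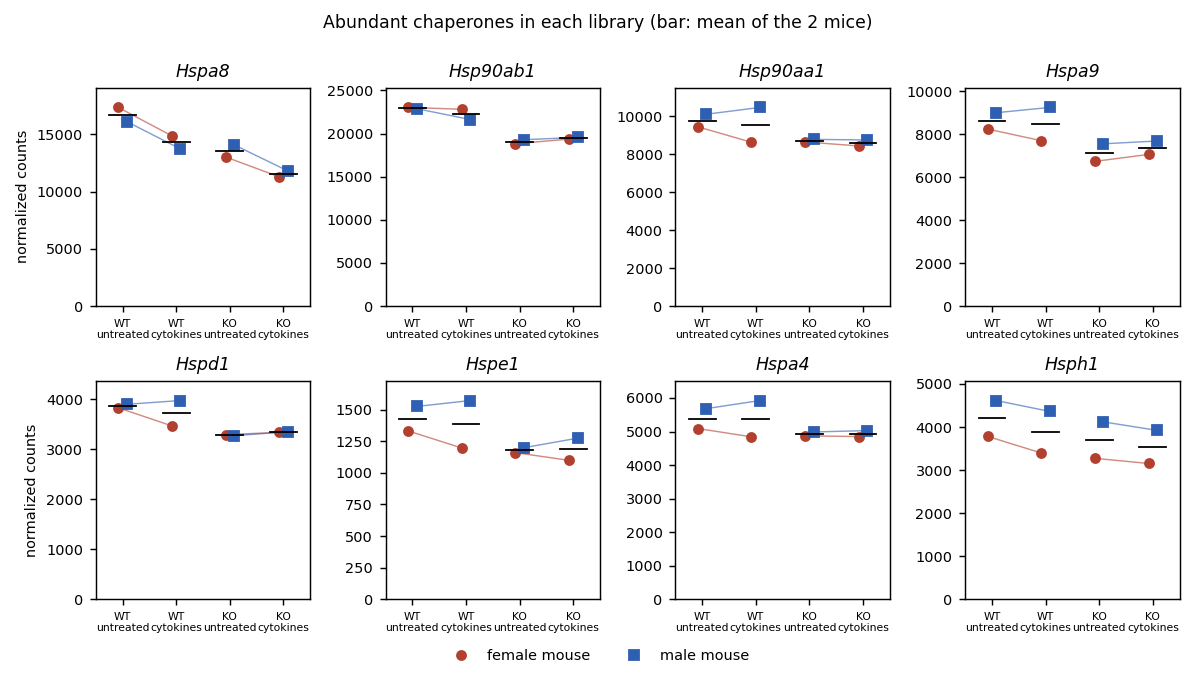
Normalized counts (vertical axis from 0) of 8 abundant chaperones in the 4 groups, with circles for the female mouse, squares for the male mouse, lines joining the 2 cultures of a mouse and bars for the mean of the 2 mice. Hspa8 is lower with cytokines along all 4 lines, and the KO libraries of Hsp90ab1, between 18813 and 19548, all lie below those of WT.

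The inducible heat-shock genes showed no common direction with cytokines. Hspa1a, the stress-induced cytosolic HSP70, had 125 and 187 normalized counts untreated and with cytokines in the WT female mouse, 83.7 and 81.6 in the WT male, 94.4 and 86.3 in the KO female and 113 and 115 in the KO male. Its neighbour and near copy Hspa1b had 129 and 195 in the WT female, 107 and 95.8 in the WT male, 101 and 108 in the KO female and 112 and 73.9 in the KO male. Both genes were about 50% higher with cytokines in the WT female mouse (49.5% and 51.6%), and neither was higher in all mice. In that mouse the stromal marker sum was 1845 untreated and 10038 with cytokines, with all 7 stromal markers higher, and its part in the result was not tested. The authors' 95% intervals of the log2 fold change of Hspa1a ran from -0.46 to 1.06 in WT and from -0.82 to 0.70 in KO. Those of Hspa1b ran from -0.62 to 1.17 in WT and from -1.11 to 0.68 in KO. By these intervals a doubling could not be told from no change in WT. No mouse term is stated for the authors' test, so its intervals can hold the spread between mice beside that of the change.

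For the more abundant inducible genes the intervals were narrower. Dnajb1, the main J protein partner of inducible HSP70, had 711 and 719 normalized counts untreated and with cytokines in the WT female mouse, 633 and 537 in the WT male, 556 and 478 in the KO female and 570 and 525 in the KO male. It was lower with cytokines in 3 of the 4 mice, and its log2 fold change lay between -0.47 and 0.25 in WT and between -0.53 and 0.19 in KO (95% intervals). Hsph1, which reactivates HSP70 by nucleotide exchange, was lower with cytokines in all 4 mice, with changes of -3.66% to -10.2%, at 3782 to 3396 in the WT female, 4615 to 4362 in the WT male, 3272 to 3153 in the KO female and 4119 to 3922 in the KO male. Its mice differed by more than its cultures, a spread that the authors' intervals can hold. Its interval was -0.55 to 0.32 in WT and -0.49 to 0.37 in KO. Hsp90aa1 was changed by -8.64% and 3.55% in the 2 WT mice and by -2.46% and -0.352% in the KO mice, with an interval of -0.29 to 0.22 in WT and -0.28 to 0.24 in KO. The regulator Hsf1 itself had 710 and 737 in the WT female, 632 and 551 in the WT male, 638 and 542 in the KO female and 607 and 539 in the KO male. Hsf1 was thus lower with cytokines in both KO mice (log2 -0.21, SE 0.20, p 0.301, FDR 1.00 in the authors' deposited table) and mixed in WT. The related factor Hsf2 changed by -9.09% and 10.6% in WT and by -9.95% and -6.46% in KO.

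**Figure D2:**
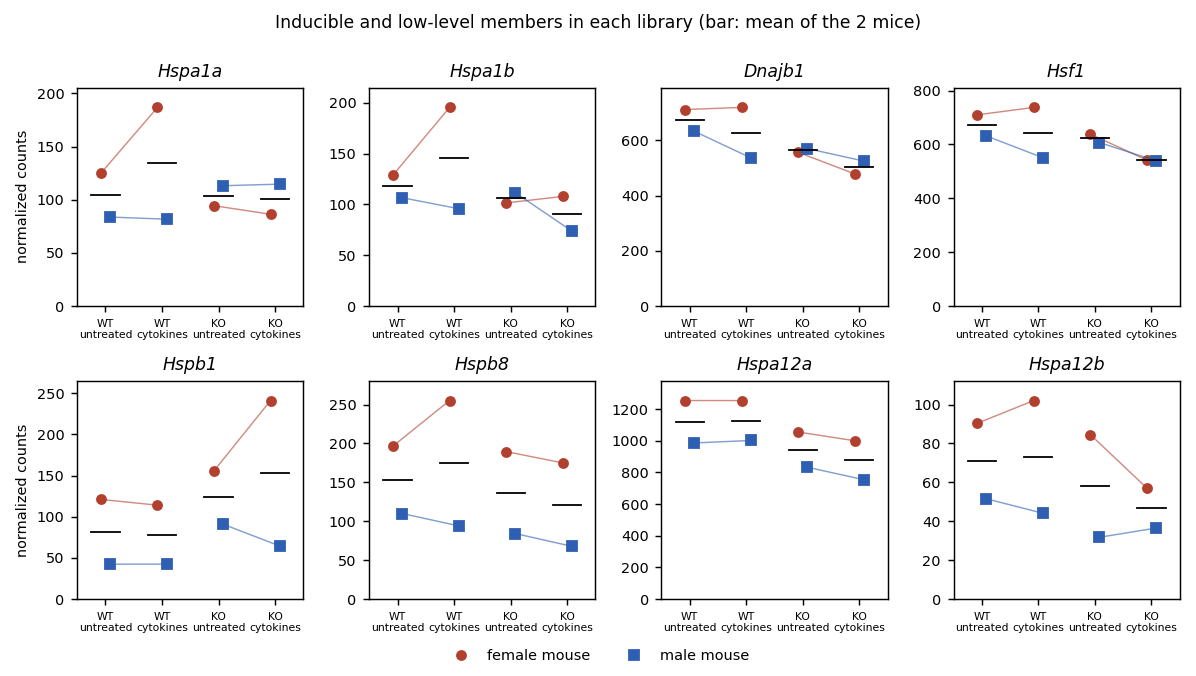
Normalized counts (vertical axis from 0) of inducible and low-level members in the 4 groups, drawn as for the abundant chaperones. Hspa1a and Hspa1b stand highest in the WT female culture with cytokines, at 187 and 195, and the female mouse is above the male in each group for Hspb1, Hspb8, Hspa12a and Hspa12b.

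Over all members, 30 of 63 log2 fold changes with cytokines were above 0 in KO (median -0.02, against 0.00 over all genes) and 19 in WT (median -0.06, against 0.00). The WT median rested on 1 mouse: with the mouse as a block, limma gave -0.06 with all mice, 0.00 without the WT female and -0.09 without the WT male. Changes were small: 61 members in KO and 60 in WT lay within 0.3 of 0 on the log2 scale, against 89.1% and 86.6% of all genes. The 95% interval stayed inside a 2-fold change either way for 56 members in KO and 54 in WT, and the exceptions were low-level genes such as Hspb1, Hspb8, Hspa12b, Dnajc22 and Hsf5. Treated libraries lay above untreated ones without overlap for 8 members in KO and 3 in WT, where 15.3% and 11.4% of all genes did so. They lay below for 10 members in KO and 11 in WT, where 14.6% and 10.9% of all genes did so. The same direction in all 4 mice was seen upward for 3 members, Dnajb3, Hspa14 and Hspbap1 (12.4% of all genes), and downward for 7, Dnaja4, Dnajb12, Dnajb4, Dnajc5, Hspa2, Hspa8 and Hsph1 (12.5% of all genes). As shares of the members these are 4.76% and 11.1%. Within a genotype the members below were 15.9% in KO and 17.5% in WT.

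Hspa14, an HSP70-related protein that works on the ribosome with Dnajc2, had the highest upward change in KO after the low-level Hspb1. It had 489 and 496 normalized counts untreated and with cytokines in the WT female mouse, 494 and 582 in the WT male, 466 and 611 in the KO female and 497 and 573 in the KO male. The log2 fold change was 0.30 in KO (SE 0.18, p 0.10) and 0.13 in WT (SE 0.18, p 0.465), with an FDR of 1.00 in both in the authors' deposited table. Dnajc2 itself was at 0.06 in KO and 0.00 in WT. An annotated gene on the same strand, Gm45902, overlaps exons of Hspa14, and how reads of both were counted is not stated.

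No DNAJ gene passed the test with cytokines. Of the 24 DNAJC members, 13 were above 0 in KO and 7 in WT, with medians of 0.01 and -0.06 and a range over both genotypes of -0.16 to 0.18. Dnajc5, the cysteine string protein of secretory vesicles, was lower in 4 of 4 mice, with changes of -1.94% to -5.39%, at 4217 to 4054 in the WT female, 4257 to 4027 in the WT male, 4110 to 3919 in the KO female and 4730 to 4638 in the KO male. Its log2 fold change was -0.07 in WT (SE 0.13) and -0.05 in KO (SE 0.13). Dnajc6, the clathrin-uncoating factor auxilin, was at 0.02 and -0.08, and Dnajc12, a J protein for aromatic amino acid hydroxylases, at 0.01 and -0.05 in WT and KO. Dnajb12, a membrane J protein of protein quality control, was lower in 4 of 4 mice, with changes of -1.70% to -11.1% (log2 -0.10 in WT and -0.15 in KO, SE 0.12 in both). Dnajc7, a co-chaperone that binds HSP70 and HSP90, was at -0.14 in WT (p 0.237) and -0.03 in KO (p 0.812), and Dnajc1 of the endoplasmic reticulum membrane at -0.11 (p 0.349) and 0.00 (p 0.975). In limma with the mouse as a block, the WT values of Dnajc7, Dnajc1 and Dnajb12 were -0.06, -0.03 and -0.02 without the WT female and -0.22, -0.20 and -0.17 without the WT male. Dnaja1, a farnesylated partner of Hspa8, changed by -16.1% and 4.44% in the WT mice and by -3.13% and -4.54% in the KO mice. Hspa4l, an HSP110 protein, was at -0.07 in WT and -0.08 in KO.

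**Figure D3:**
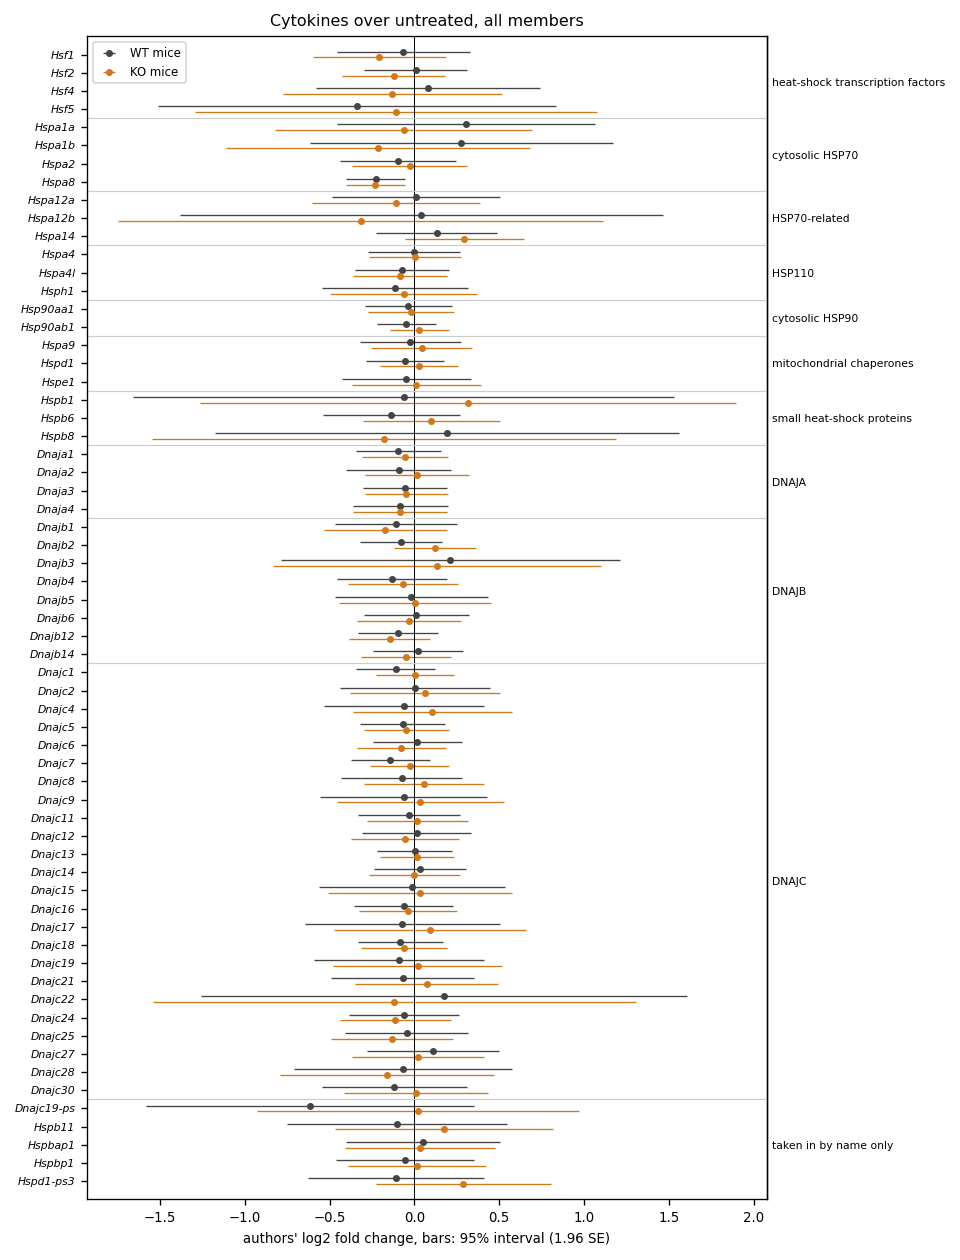
Authors' log2 fold change with cytokines over untreated (horizontal axis) with its 95% interval for the 63 members by family, dark for WT mice and orange for KO mice. Hspa8 is the member whose interval clears 0 in both genotypes, at -0.23, and the widest intervals belong to Hspb1, Hspb8, Hspa12b and Dnajc22.

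Between genotypes, 0 of the 63 members passed the authors' FDR of 0.05, against 0.41% of all genes untreated and 0.998% with cytokines. The estimates of the most abundant members, Hsp90ab1 and Hspa8, lay lower in KO islets. Hsp90ab1 (ENSMUSG00000023944, chromosome 17, 45567775-45573271, minus strand) had 23028 and 22885 normalized counts in the female and male WT mice untreated and 22815 and 21625 with cytokines. In KO it had 18813 and 19285 untreated and 19355 and 19548 with cytokines, so all 4 KO libraries lay below all 4 WT libraries, as for 4.76% of all genes. The log2 fold change in the authors' deposited table was -0.27 untreated (SE 0.086, p 0.00167, FDR 0.186) and -0.19 with cytokines (SE 0.086, p 0.0250, FDR 0.596). Hspa8 was at -0.30 untreated (SE 0.11, p 0.00444, FDR 0.322) and -0.31 with cytokines (SE 0.11, p 0.00393, FDR 0.20), which are changes of -19.0% and -19.2%. KO and WT libraries of Hspa8 did not overlap within a culture condition. KO lay below WT in this way for 18.3% of all genes untreated and 14.2% with cytokines. Both were among the members with an unadjusted p below 0.05, which were 3 untreated and 2 with cytokines, all lower in KO, against 4.89% and 5.88% of all genes.

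Treating each mouse as 1 sample, with the reads of its 2 cultures summed after the data had been seen, limma gave -0.28 for Hspa8 (SE 0.10, adjusted p = 0.854) and -0.23 for Hsp90ab1 (SE 0.095, adjusted p = 0.913), lower in both KO mice. A fit of the single libraries without a block called 0 members in either condition, beside 0.0123% of all genes with cytokines. The fit of summed reads called 0 of 16317 genes, with 940 at an unadjusted p below 0.05 and 1 of the members, Hspa8, among them. Hsp90aa1, at -0.17 untreated (SE 0.13) and -0.15 with cytokines (SE 0.13), lay in the same direction as Hsp90ab1, and its libraries overlapped with cytokines. The sum over all 63 members was 128789 and 130382 in WT against 114727 and 119603 in KO untreated, and 119929 and 127537 against 112196 and 116973 with cytokines, in the order female, male. Without Hspa8 and Hsp90ab1 the sums were 88397 and 91375 against 82877 and 86224 untreated, still apart, and 82236 and 92178 against 81549 and 85610 with cytokines, which overlap. Endothelial marker sums were 7642 to 9757 in WT and 4978 to 6270 in KO, sums for dividing cells 313 to 419 and 1005 to 1508, and lymphocyte sums 156 to 210 and 341 to 1305. Stromal sums were 1535 to 10038 in WT and 4566 to 13091 in KO. The part of these cells in the chaperone levels was not tested.

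None of the 3 mitochondrial chaperones passed the test, and their log2 fold changes of KO over WT were below 0 in both conditions. Hspa9, which pulls proteins into the matrix, had 8237 and 8996 normalized counts in the female and male WT mice untreated and 7694 and 9243 with cytokines, against 6732 and 7550 and then 7055 and 7681 in KO. Hspd1, the mitochondrial HSP60, had 3831 and 3900 untreated and 3468 and 3976 with cytokines in WT, against 3293 and 3272 and then 3338 and 3351 in KO. For both genes all 4 KO libraries lay below all 4 WT libraries, which was so for 4 members in all (with Hsp90ab1 and Dnaja3, the mitochondrial J protein) and for 4.76% of all genes. Hspe1, the lid of the Hspd1 chamber, had 1333 and 1527 untreated and 1198 and 1574 with cytokines in WT, against 1161 and 1200 and then 1100 and 1275 in KO, where the groups overlap with cytokines. The authors' log2 fold changes untreated were -0.27 for Hspa9 (SE 0.14, p 0.0509, FDR 1.00), -0.24 for Hspd1 (SE 0.11, p 0.0357, FDR 0.903) and -0.28 for Hspe1 (SE 0.18, p 0.121, FDR 1.00). With cytokines they were -0.20, -0.15 and -0.22, none with an unadjusted p below 0.05.

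Hspd1 and Hspe1 lie head to head on chromosome 1, at 55077835-55088243 on the minus strand and 55088132-55091307 on the plus strand (GRCm38), and overlap by 112 bases. Their shared start region holds a run of heat-shock elements, the inverted GAA and TTC units that Hsf1 binds. The stretch chr1:55088053-55088082, plus strand, lies 95 to 66 bases before the start of Hspe1 in the RefSeq promoter table (GRCm38.p6), and also within an exon of an annotated Hspd1 transcript. It is shown because 1 run of units, in capitals, stands before both genes:
Hspe1 and Hspd1: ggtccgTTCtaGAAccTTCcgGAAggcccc
Nothing states whether the counting used strand, and reads from the overlap of both genes cannot be told apart.

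Untreated, the KO libraries lay below the WT libraries without overlap for 21 of the 63 members, against 18.3% of all genes, and above for 7, against 18.6%. With cytokines they lay below for 12, against 14.2% of all genes, and above for 8, against 14.7%. As shares of the members these are 33.3% and 11.1% untreated and 19.0% and 12.7% with cytokines. The 21 members below WT untreated included both HSP90 genes, Hspa8, Hspa2 and Hspa4, the 3 mitochondrial chaperones, Dnaja1, Dnaja3, Dnajb1 and Dnajb2. The median log2 fold change over the members was -0.08 untreated and -0.05 with cytokines, against 0.00 over all genes in both. In limma without a block the medians were -0.07 and -0.02. Without the WT male mouse they were -0.12 and 0.00, and without the KO female -0.07 and 0.02, so the median with cytokines changed sign when 1 mouse was left out. The members are not independent of each other, and no test of the list as a whole was made.

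Some members lay higher in KO. Dnaja4, a DNAJA protein known to respond to sterol regulation, had 1868 and 1901 normalized counts in the female and male WT mice untreated and 1714 and 1841 with cytokines, against 2132 and 2249 and then 1897 and 2231 in KO. Its log2 fold change was 0.22 in both culture conditions (SE 0.13 in both, p 0.0977 and 0.0987, FDR 1.00 in the authors' deposited table). With cytokines it was 0.09 without the KO male mouse and 0.33 without the KO female in limma without a block, and untreated 0.18 and 0.25. All 4 KO libraries lay above all 4 WT libraries for 3 members, Dnajc13, Hsf4 and Hspbap1, against 5.38% of all genes. Dnajc13, an endosomal J protein also known as RME-8, had 5424 to 6033 in WT and 6070 to 6326 in KO, a log2 fold change of 0.10 untreated and 0.11 with cytokines (SE 0.11 in both). The difference was about the size of its SE.

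No inducible gene passed the test between genotypes. With cytokines Hspa1b was at -0.68 in KO over WT (SE 0.42, p 0.10) and Dnajb1 at -0.32 (SE 0.19, p 0.10), both with an FDR of 1.00 in the authors' deposited table. Leaving out 1 mouse in limma without a block moved both: to -0.15 and -0.09 without the WT female, and to -1.17 and -0.51 without the WT male. Hspa1b was at -0.30 without the KO male. For Hspa1b the groups overlapped, since its WT male library had 95.8 normalized counts and its KO female library 108. Dnajb1 libraries did not overlap with cytokines, at 537 and 719 in WT and 478 and 525 in KO, where KO lay below WT for 14.2% of all genes. Hspa1a was at 0.00 untreated (SE 0.46) and -0.41 with cytokines (SE 0.45). Hspb1, the small heat-shock protein HSP27 that binds actin and early unfolding clients, was at 0.60 untreated (SE 0.71) and 0.96 with cytokines (SE 0.71). Hspa12a, a distant HSP70 relative, had 1254 and 986 untreated and 1253 and 1001 with cytokines in WT against 1055 and 833 and then 1000 and 754 in KO, in the order female, male. Its log2 fold change was -0.36 with cytokines (SE 0.23, p 0.106, FDR 1.00). A limma fit blocked on mouse sex gave -0.37 (SE 0.074, adjusted p = 0.0420), lower in KO in both sexes, the only member called beside 3.59% of all genes (1.18% lower), and it called 0 members untreated beside 1.69%. That fit counts the 2 cultures of a mouse as independent, so its p-values are too small.

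**Figure D4:**
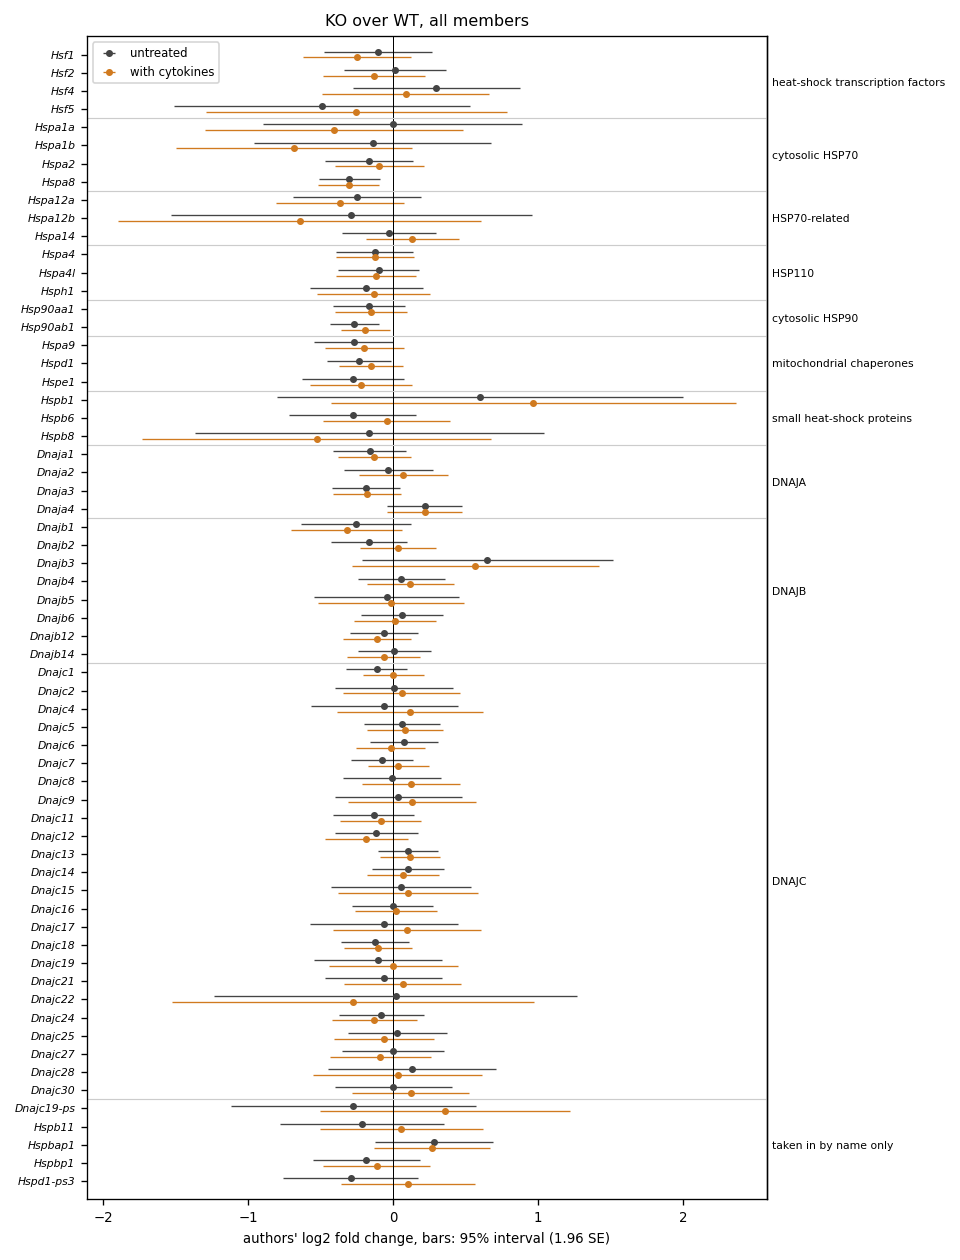
Authors' log2 fold change of KO over WT (horizontal axis) with its 95% interval for the 63 members by family, dark for untreated and orange for cytokine cultures. Hspa8 and Hsp90ab1 have intervals below 0 in both conditions, and the mitochondrial chaperones lie between -0.28 and -0.15.

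The cytokine response did not differ detectably by genotype. Taken as the difference of the 2 deposited log2 fold changes over its SE, 0 of the 63 members and 0% of all genes passed an adjusted p of 0.05. At an unadjusted p below 0.05 there were 0 members and 0.22% of all genes, and limma called 0 genes with or without the mouse block. Hspa8 differed by 0.00 (SE 0.12, 95% interval -0.25 to 0.24). The smallest p was that of Dnajb2, a ubiquitin-binding J protein, with a difference of 0.20 (SE 0.17, p 0.249, adjusted p 1.00). It had 1421 and 1378 untreated and with cytokines in the WT female mouse, 1327 and 1227 in the WT male, 1166 and 1295 in the KO female and 1277 and 1364 in the KO male. Dnajb2 was thus lower in both WT mice and higher in both KO mice, a pattern shared with Hsp90ab1, Hspb6 and Hspd1-ps3 and with 4.23% of all genes. Dnajc6 showed the opposite pattern, as did 4.15% of all genes. Hspb6, a small heat-shock protein of muscle, differed by 0.24 (SE 0.29) and Hspa1b by -0.49 (SE 0.65, 95% interval -1.76 to 0.78). With the mouse as a block, limma gave Hspa1b -0.13 without the WT female, -0.17 without the KO male, -0.85 without the KO female and -0.88 without the WT male.

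Several members differed more between the mice than between the conditions. In all 4 groups the female library was above the male one for 8 members, against 19.8% of all genes, and below for 20, against 19.5%. The small heat-shock proteins Hspb1 and Hspb8 had the highest ratios. Hspb1 had 121 against 42.4 normalized counts, female against male, in WT untreated, 114 against 42.5 in WT with cytokines, 156 against 90.9 in KO untreated and 241 against 64.5 in KO with cytokines, a median ratio of 2.77. Hspb8, the partner of the autophagy co-chaperone Bag3, had 197 against 110, 255 against 94.1, 190 against 84.3 and 175 against 67.9 in the same order, a median ratio of 2.41. Hspa12b, an HSP70 relative of endothelium, had 90.4 against 51.6, 102 against 44.2, 84.6 against 31.8 and 57.1 against 36.5, a median ratio of 2.03.

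These 3 genes were thus higher in the female of each pair, and 1 mouse of each sex stands for each genotype. Dnajc22 had a median ratio of 1.74 and Hspa12a of 1.27. Members lower in the female libraries included Hsph1, with a median ratio of 0.799, Dnajb3 with 0.65, Hspe1 with 0.868 and Hspa9 with 0.904. The female libraries also held more acinar RNA in each group, with marker sums of 58851 against 7041 and 26620 against 4987 in WT and 68373 against 29655 and 117003 against 20628 in KO. Stromal sums were 1845 against 1535 and 10038 against 2048 in WT and 9781 against 5104 and 13091 against 4566 in KO. Alpha cell sums, from the 4 markers with recovered reads, were also higher in the female libraries. They were 11876.5 against 6354 and 12703 against 6595 in WT and 12426 against 4778 and 12925 against 6219 in KO. Duct sums were lower, at 13731 against 23118 and 14946 against 24917 in WT and 13283 against 24150 and 15757 against 21019 in KO. Endothelial sums were mixed, at 7642 against 9294 and 9757 against 9499 in WT and 6270 against 5643 and 6084 against 4978 in KO. Sex, the single mouse and the cell makeup of its preparation cannot be told apart here, and their part in the result was not tested. In the cytokine response of KO, the SE was 0.81 for Hspb1, 0.70 for Hspb8 and 0.73 for Hspa12b. It was 0.48 to 0.73 for the members with a mean under 100 normalized counts and 0.088 to 0.25 for those with a mean of at least 1000.

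**Figure D5:**
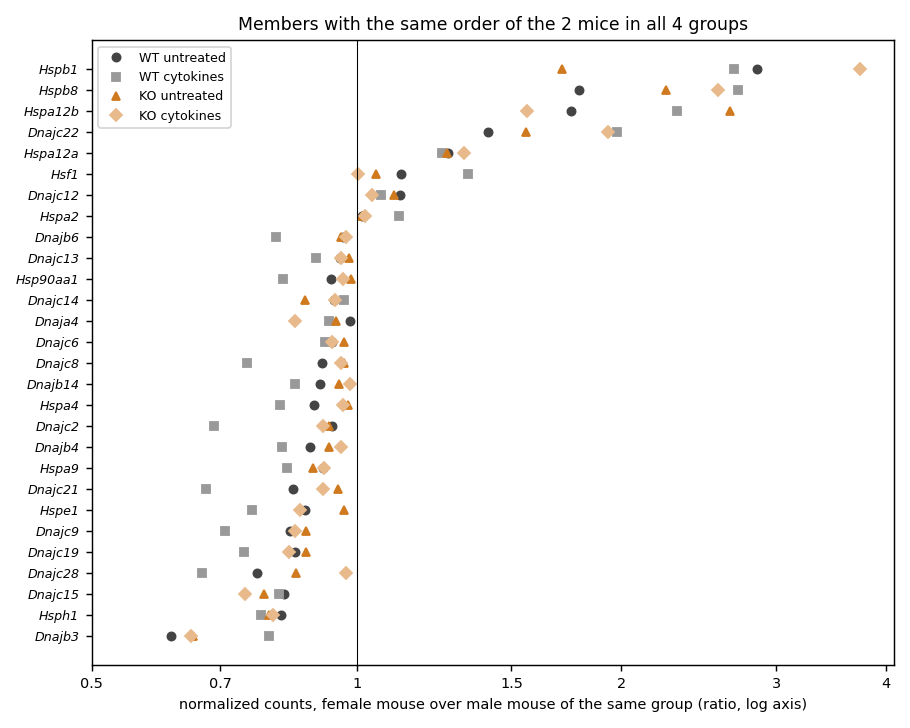
Ratio of normalized counts, female over male mouse of the same group (horizontal log axis), for the members with the same order of both mice in all 4 groups, with 1 symbol per group. Hspb1, Hspb8, Hspa12b and Dnajc22 have median ratios from 1.74 to 2.77, and most others lie between 0.7 and 1.

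Promoters were available for 48 of the 63 members in the RefSeq table on GRCm38.p6, which spans 250 bases before to 50 bases after a start. A heat-shock element, taken as GAANNTTC or TTCNNGAA (each equals its own reverse complement), stood in a window of 14 members, 29.2%. It stood in 17% of the 27025 genes of that table, measured in islets or not, and in 15.1% of all windows. A run of 3 linked units, in which such elements overlap on either strand, stood in 4 members, 8.33%, against 0.662% of the genes of that table. Those 4 were Dnajb6, Hspd1, Hspe1 and Hsph1, of which Hspd1 and Hspe1 share 1 run. The near copies Hspa1a and Hspa1b are both among the 14, so the members counted are not independent. The inducible gene Dnajb1 was in the table and had no element. Hspa8, Hsp90aa1, Hsp90ab1, Hspa9 and Hsf1 were among the 15 members not in the table. A match is a string of letters, not a measured binding site.

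The stretches below, from inducible members, are shown because they carry the element in capitals before genes that did not pass the test with cytokines. They were chr17:34972217-34972296 and chr17:34959299-34959378 on the minus strand for Hspa1a and Hspa1b, chr5:135887779-135887858 on the plus strand for Hspb1 and chr5:149636354-149636383 on the minus strand for Hsph1, all 5′ to 3′. The Hsph1 stretch lies before 1 RefSeq start of the gene and within an annotated exon of another transcript. It holds a single element, and the run of 3 linked units of Hsph1 lies after that start.
Hspa1a: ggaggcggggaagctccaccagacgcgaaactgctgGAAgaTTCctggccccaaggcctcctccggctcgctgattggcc
Hspa1b: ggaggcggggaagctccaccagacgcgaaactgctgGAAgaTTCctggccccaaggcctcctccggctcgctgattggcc
Hspb1: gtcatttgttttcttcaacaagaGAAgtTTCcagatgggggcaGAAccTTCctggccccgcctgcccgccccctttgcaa
Hsph1: attgggtagaatctTTCtcGAAggctcgag
The Hspa1a and Hspa1b stretches are the same in all 80 bases, and their whole windows in 296 of 300. The transcripts are near copies too: 58.8% of the 50-base windows of Hspa1a exons are found in Hspa1b and 62.3% the other way. The split of reads between them is therefore uncertain. So are the levels of both, since the handling of reads matching both is not known. Hspa1a also overlaps Gm20481 on the opposite strand. The 14 members with an element had a median log2 fold change with cytokines of -0.06 in both KO and WT, and the 34 matched members without one 0.00 and -0.06, with 0 called among either.

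Other genes of protein folding were read from the same tables. Of 29 partners of the heat-shock system (such as the nucleotide exchange factors Bag1 and Bag3, the HSP70-HSP90 adaptor Stip1 and the HSP90 activator Ahsa1), 0 passed the FDR in any of the 4 comparisons. The same was so for 14 genes of the cytosolic chaperonin and prefoldin, 12 genes of mitochondrial protein quality control and 16 chaperones of the endoplasmic reticulum. Median log2 fold changes of the 4 lists with cytokines were 0.02, 0.01, 0.02 and 0.01 in KO and -0.05, -0.03, -0.04 and -0.12 in WT. In KO over WT they were -0.05, -0.07, -0.09 and -0.10 untreated and -0.02, -0.02, -0.04 and 0.03 with cytokines, against 0.00 over all genes in each comparison. In WT with cytokines 0 of the 16 chaperones of the endoplasmic reticulum were above 0, where 49.1% of all genes were below 0. Their summed normalized counts went from 307656 to 269065 in the WT female mouse and from 314610 to 303679 in the WT male. In the WT male Hsp90b1, Dnajb9, Dnajc10 and Canx were higher with cytokines. Of the 16, 1 gene, Creld2, had an unadjusted p below 0.05 in WT, as did 0.918% of all genes. The partner Hsbp1, a protein that binds Hsf1, had 2399 and 3230 normalized counts in the female and male WT mice untreated and 2268 and 3205 with cytokines, against 3417 and 5263 and then 3602 and 5201 in KO. All 4 KO libraries of Hsbp1 lay above all 4 WT libraries, as for 5.38% of all genes. Its log2 fold change was 0.62 untreated (SE 0.27, p 0.0228, FDR 0.760) and 0.69 with cytokines (SE 0.27, p 0.0124, FDR 0.397) in the authors' deposited table. It was the only gene of the 4 lists with an unadjusted p below 0.05 between genotypes, against 4.89% of all genes untreated and 5.88% with cytokines. Creld2 and Hsbp1 were singled out after their values were seen. Of the 29 partners, 2 are also members by name, Hspbp1 and Hspbap1.

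The 2 pseudogenes held few reads and passed no test. Dnajc19-ps had 59.8 and 33.7 normalized counts untreated and with cytokines in the WT female mouse, 75.6 and 55.0 in the WT male, 49.9 and 58.4 in the KO female and 62.1 and 56.0 in the KO male (log2 -0.62 in WT, SE 0.49, p 0.211, and 0.02 in KO, SE 0.48). Hspd1-ps3 was at 0.29 in KO (SE 0.26, p 0.271) and -0.11 in WT (SE 0.27). Both share sequence with their parent gene, with 64.6% of the 50-base windows of Dnajc19-ps found in Dnajc19 and 60.7% of those of Hspd1-ps3 in Hspd1, so their counts may hold reads of the parents.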

How the data were processed

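Per the submitters' processing notes, HISAT2, HTSeq, DESeq2 and the build GRCm38 were used; versions and the handling of strand are not given in the sources used here. Deposited are 4 comparison tables made by the authors, each of 16333 genes, without columns for single libraries. Their signal columns are means of read counts divided by size factors, as deposited. The deposited log2 fold change and its Wald score gave the SE as their quotient. P-values and FDR were used as the authors deposited them. A genotype called Mut in the tables was taken for wild type, the remaining genotype.

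A gene was called at an FDR below 0.05. Whole reads of single libraries were recovered from the group means, for 99.9% of genes (16317), 294 of them with the help of the mean over all libraries, and assigned to mice by Y-linked reads. They carry no replicate number. Limma 3.58.1 (voom, the authors' size factors) in R 4.3.3 was run on them and tested on simulated data. The simulated libraries were drawn independently, without an effect of mouse or sex. They could not check how the blocked and summed fits handle such effects. Per the series text the 2 cultures of a genotype and sex come from 1 mouse, and their deviations from the group means correlated across genes (r 0.742 in KO, 0.757 in WT). Libraries of the same sex from different genotypes, which share no mouse, correlated too (r 0.501 untreated, 0.490 with cytokines). P-values rest on 2 mice per genotype. Intervals are 95%, 1.96 SE. Exon lengths and positions are from GENCODE M21.

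Named are the 5 members with the smallest p per comparison and a mean of at least 50 normalized counts, the 8 highest per kb and a list of well-known members; others were named after their values were seen. Members and lists were chosen with earlier results of these data known.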

Additional observations from a re-analysis of the deposited data

How the results depend on the processing

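In each of the 4 comparisons the count of members called stayed at 0 at an FDR of 0.1 and with genes under a mean of 50 normalized counts left out. It also stayed at 0 in limma without a block, and when scaled by the total of recovered reads (the last chosen after seeing the data). With the mouse as replicate block limma called 0 members with cytokines in either genotype (Hspa8 adjusted p 0.0804 in KO and 0.108 in WT), and 0 for the difference between genotypes in the response. With a mouse left out, 1 mouse stands for its genotype in this fit, and the spread comes from the other genotype alone. Calls of such fits are therefore not given. Hspa8 in KO was then at -0.25 without the KO female and -0.21 without the KO male. In WT it was at -0.23 without the WT female and -0.22 without the WT male. The 1 call with both genotypes together became 0 to 1 with each mouse left out in turn. With the sex of the mouse as replicate block 1 member, Hspa12a, was called in KO over WT with cytokines and 0 untreated. For KO over WT, fits without a block and those of summed cultures also keep 1 mouse in a genotype when 1 is left out. Their calls are not given either. The fit with the sex block was not run with a mouse left out. All 159 values of single members under alternatives kept their direction. Those members were picked by their small p in the same data, and the alternatives reuse the same libraries. Much of this sameness was therefore fixed in advance: leaving out a WT mouse, for example, hardly touches the KO response. Hspa8 with both genotypes together was no longer past the threshold without the KO female mouse. Planned fits with edgeR, DESeq2 and TMM scaling were not run: count tools were kept for deposited counts, and the reads here were recovered from group means. The precision is limited by 2 mice per genotype.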
